A study of Mus musculus with 62 samples.

Results

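The 10 genes of drug and bile acid transport (Abcc2, Abcc3, Abcc4, Abcb1a, Abcb11, Abcg2, Slco1a1, Slco1a4, Slco1b2 and Slc10a1) were followed in mice exposed to polychlorinated biphenyls (PCBs), persistent industrial chemicals that dissolve in fat. They were taken by their mouse Entrez identifiers from the count tables. All 10 were listed among the 16206 genes of the liver table, and 8 among the 17653 of the prefrontal cortex and the 17874 of the striatum. Abcb11 and Slco1a1 were not analysed in the brain. After a filter on low counts, 10 members were tested in the liver and 5 in each brain region.

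Hepatocytes take bile acids and drugs from the blood through carriers of the solute carrier family on their sinusoidal (blood-facing) membrane. They send products onward by ATP-driven pumps of the ABC family, either across the canalicular membrane into bile or back across the basolateral membrane into blood. Several of these genes are known targets of the nuclear receptors CAR (Nr1i3) and PXR (Nr1i2), which respond to foreign chemicals, and of FXR (Nr1h4), which responds to bile acids. In the brain, some of the same pumps sit in the endothelium of the blood-brain barrier and return drugs to the blood.

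The samples came from female C57BL/6 mice, an inbred strain, dosed by mouth with vehicle or with the MARBLES mixture, a PCB mixture modelled on the blood of a pregnancy cohort, at a dose of 0.1, 1 or 6 mg/kg. Listed from vehicle to the highest dose, the liver had 4, 4, 6 and 6 libraries, and each brain region, sampled by tissue punch, had 4, 5, 6 and 6. The labels used here give neither the age of the mice nor the length of exposure, and do not state that each library of a group is a separate mouse, so p-values measure the spread between these libraries. The question put to each member was whether its transcript differed from vehicle, at which dose and in which tissue.

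Libraries totalled 7.38 to 10.2 M counts (M, 10⁶) in the liver, 8.72 to 12.1 M in the prefrontal cortex and 8.28 to 12.02 M in the striatum. The tissue labels were checked against markers. The 5 hepatocyte markers summed to 70697 to 154302 CPM (counts relative to the library's TMM-adjusted total) in the liver. The 3 of them listed in each brain region summed to at most 1.16 CPM there. Striatal neuron markers summed to 1961 to 4889 CPM in the striatum and to 672 to 2154 CPM in the prefrontal cortex. The vehicle livers stood apart in clock genes, which cycle over the day. Their clock index, log2 Dbp minus log2 Arntl, was 5.45 (animal 8), 5.19 (animal 7), 2.49 (animal 4) and 2.04 (animal 3), against 6.58 to 8.48 at 6 mg/kg. Of the 11 clock genes listed, 5 passed at 6 mg/kg, beside 2.8% of all genes: Tef, Per3, Dbp and Ciart rose and Arntl fell. None of the 11 passed without vehicle animal 3, without animal 4, without both, with the 2 groups alone or with the GC slope (described next) as a covariate. The shares of all genes in those settings are not given here, so this loss is not read as particular to clock genes. The fits without animals 3 and 4 and with the clock index as a covariate are given beside the liver calls they change. The GC slope of a library is, despite its name, the Spearman correlation of its deviation from each gene's mean with the gene's GC content. It also separated the groups, at -0.271 to -0.154 in vehicle livers and -0.016 to 0.232 at 6 mg/kg.

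Upstream windows of 250 bases are printed for the members with an unadjusted p under 0.05 at 1 or 6 mg/kg in the liver that the RefSeq promoter table (GRCm38.p6) holds. The table has windows for 9 of the 10 members, Abcc3 being the other. Both strands were searched for the nuclear receptor hexamer AGGTCA, which reads as TGACCT when inverted, the E-box CACGTG that clock factors bind, the aryl hydrocarbon receptor core GCGTG, the antioxidant response core TGACNNNGC, CCAAT and the HNF1 site. Capitals mark AGGTCA or TGACCT and CACGTG. Where a gene has more than 1 window, that of the outermost start in this table is shown. The Abcc4 window lies inside the gene span given for it here, and the Slco1b2 window partly inside its own, so these are not upstream of the outermost annotated base of those genes.
Slco1b2, chr6:141629268-141629517, plus strand: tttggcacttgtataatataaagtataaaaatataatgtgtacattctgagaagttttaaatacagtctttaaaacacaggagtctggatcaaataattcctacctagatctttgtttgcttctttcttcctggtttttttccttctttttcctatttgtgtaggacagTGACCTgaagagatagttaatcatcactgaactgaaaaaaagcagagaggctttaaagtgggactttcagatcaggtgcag
Slc10a1, chr12:80968706-80968955, minus strand: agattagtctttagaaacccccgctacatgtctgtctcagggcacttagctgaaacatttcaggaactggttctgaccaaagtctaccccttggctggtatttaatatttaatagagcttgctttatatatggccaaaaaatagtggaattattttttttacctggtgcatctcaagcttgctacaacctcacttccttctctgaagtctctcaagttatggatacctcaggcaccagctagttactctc
Slco1a1, chr6:141946963-141947212, minus strand: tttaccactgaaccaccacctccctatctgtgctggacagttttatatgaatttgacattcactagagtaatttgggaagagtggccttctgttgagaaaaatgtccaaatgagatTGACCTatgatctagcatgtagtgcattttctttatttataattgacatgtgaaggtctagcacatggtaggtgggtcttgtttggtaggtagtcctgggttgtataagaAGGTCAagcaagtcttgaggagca
Abcc4, chr14:118706220-118706469, minus strand: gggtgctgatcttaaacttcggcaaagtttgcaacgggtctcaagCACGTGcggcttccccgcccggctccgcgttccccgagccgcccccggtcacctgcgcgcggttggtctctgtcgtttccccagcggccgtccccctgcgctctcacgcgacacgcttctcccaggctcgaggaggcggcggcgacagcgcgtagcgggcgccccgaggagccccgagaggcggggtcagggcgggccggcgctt
The hexamer was found 1 time in the Slco1b2 window and 2 times in that of Slco1a1, and 14% of 32851 mouse windows of this length hold it. The Abcc4 window held 1 E-box, as 6.02% of windows do, 2 matches to GCGTG (28.2% of windows) and 1 to TGACNNNGC (10.2%). The Slc10a1 window held none of the motifs searched, while a second Slc10a1 window, chr12:80968080-80968329, held the hexamer 1 time. These matches describe letters in the windows and show no binding.

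Levels are compared between genes as CPM per kilobase of exon. In vehicle livers Slc10a1, the sodium-dependent bile acid carrier of the sinusoidal membrane, was highest at 366 ± 41.4 CPM per kb (SD, n = 4). Slco1b2 (147 ± 16.3), a sodium-independent carrier of bile acids and drugs, and Abcb11 (128 ± 9.98), the bile salt export pump of the canaliculus, came next with overlapping ranges. Slco1a4 (25.4 ± 5.02), Abcc3 (18.8 ± 2.25) and Abcc2 (18.8 ± 5.32) formed a middle tier in which neighbours overlapped. Abcg2 (2.95 ± 0.604) stood below them and above Abcb1a (1.22 ± 0.387) and Abcc4 (0.587 ± 0.183), whose ranges overlapped. Slco1a1, known for far higher levels in male than in female mouse liver, was lowest at 0.189 ± 0.0928 CPM per kb, with 3 to 13 counts per vehicle library.

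**Figure D1:**
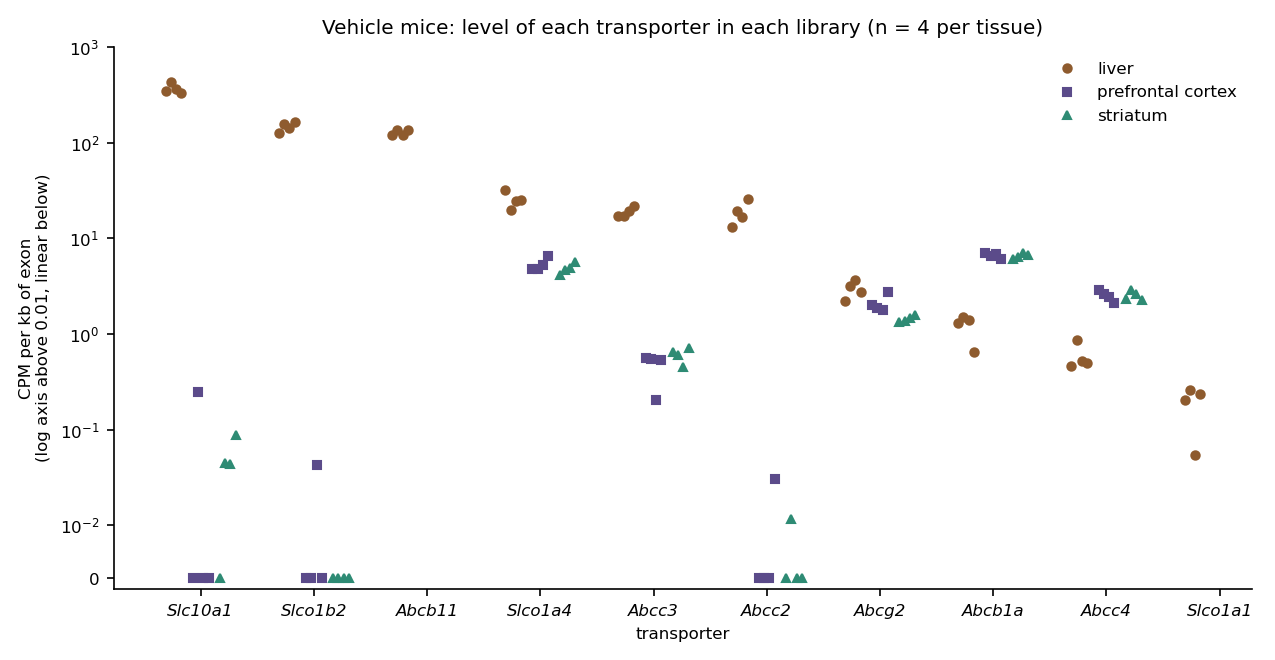
Level of each member in vehicle mice, as CPM per kb of exon (y axis, logarithmic above 0.01 and linear below) for each of 4 libraries of the liver, prefrontal cortex and striatum. Slc10a1, Slco1b2 and Abcc2 reach at most 0.246 CPM per kb in the brain, and Abcb1a and Abcc4 lie higher in both brain regions than in the liver.

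In the liver 1 of the 10 members passed at 6 mg/kg, where 2.8% of the 12968 genes tested passed (adjusted p under 0.05, edgeR). That member was Abcc3, which rose, as did 1.8% of genes. At an unadjusted p under 0.05 there were 4 members, Abcc3 and Abcc4 above vehicle and Slc10a1 and Slco1b2 below it, against 24.2% of all genes. The median log2 fold change of the members was 0.10, and that of all genes 0.02. There were 6 members above 0 and 4 below. The 3 doses share the vehicle libraries, so their comparisons are not independent. In whole tissue, fewer cells of a type and less RNA per cell cannot be told apart.

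**Figure D2:**
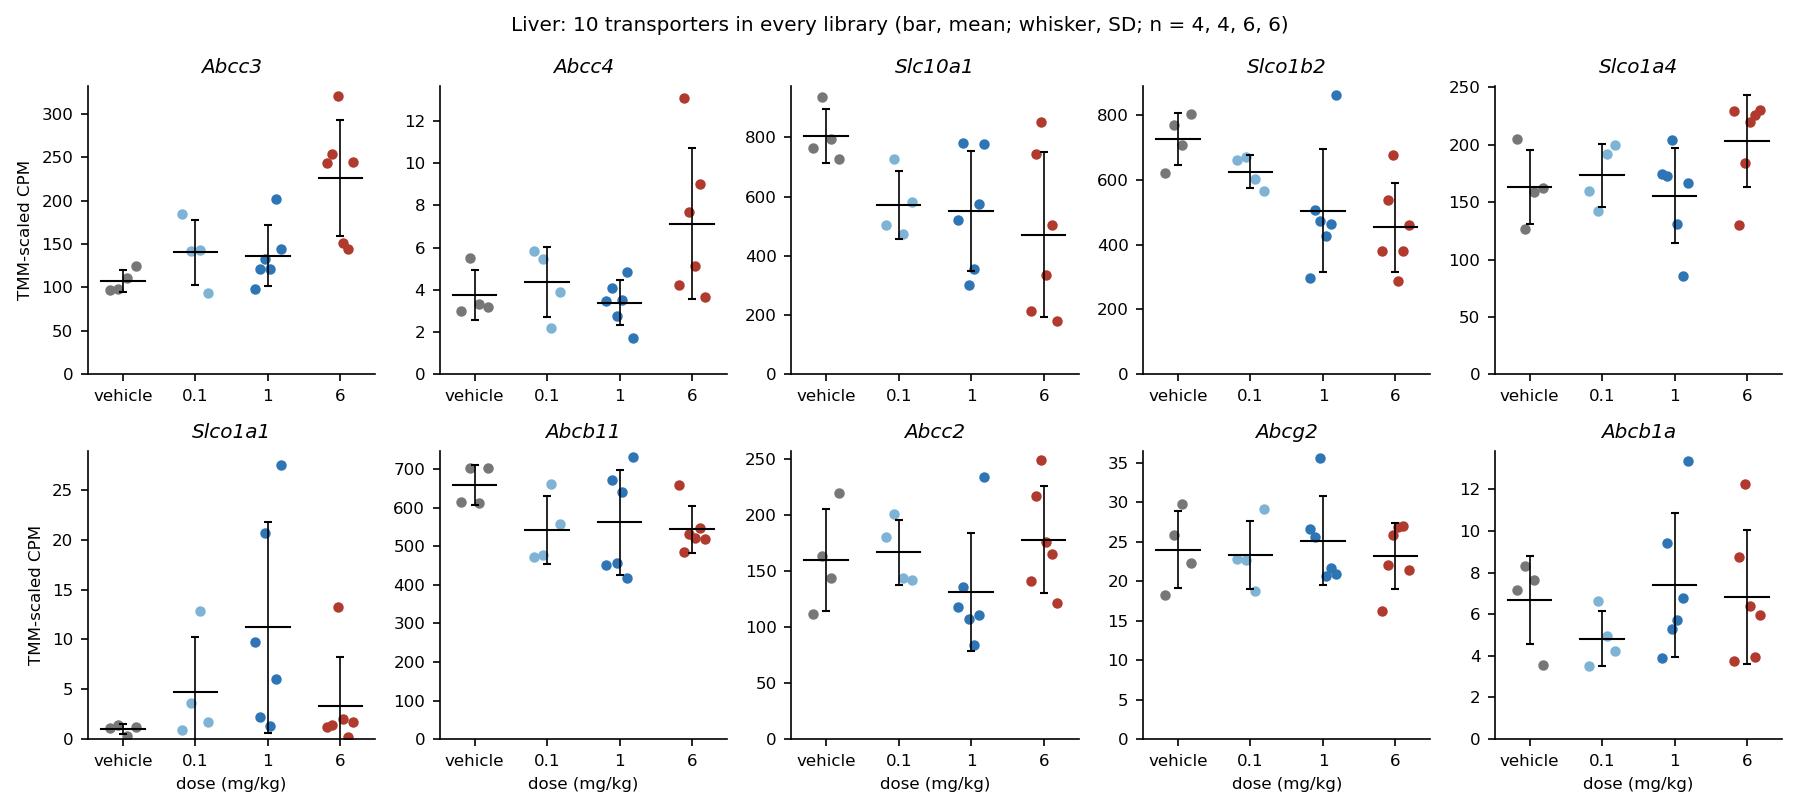
TMM-scaled CPM (y axis) of the 10 members in each of the 20 liver libraries by dose in mg/kg (x axis). Points are libraries, bars means and whiskers SD. All 6 Abcc3 values at 6 mg/kg lie above the 4 vehicle values, whereas Slco1a1 is spread over the 1 mg/kg libraries from 1.30 to 27.5 CPM.

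The pumps that return material to the blood are Abcc3 and Abcc4. Abcc3 (Entrez 76408, chr11:94343295-94393017, GRCm38.p6, as for all positions here) exports glucuronides and bile acids across the basolateral membrane. It measured 96.8, 98.0, 110.5 and 124 CPM in the vehicle livers (animals 8, 7, 4 and 3). At 6 mg/kg the values were 243, 253, 321, 151, 144 and 245 CPM (animals 58, 56, 55, 54, 53 and 52). Every library at 6 mg/kg was above every vehicle library, as for 3.26% of genes, although animals 53 and 54 lay apart from the other 4. The means were 107.4 ± 12.8 CPM (SD, n = 4) and 226.2 ± 67.2 CPM (SD, n = 6). The log2 fold change was 1.07 (SE 0.238, adjusted p = 0.0244, edgeR), or 2.11-fold.

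At the lower doses Abcc3 overlapped vehicle. It measured 93.1, 141, 143 and 185 CPM at 0.1 mg/kg and 98.6, 121, 121, 132, 144 and 202 CPM at 1 mg/kg. The log2 fold changes were 0.39 (SE 0.252, adjusted p = 0.994) and 0.35 (SE 0.232, adjusted p = 0.657). The estimates of both lower doses were thus close to each other and below that of 6 mg/kg. Their libraries overlapped those at 6 mg/kg, which began at 144 CPM, and 6 against 1 mg/kg was not tested here. Across the 4 dose ranks Abcc3 had a slope of 0.33 log2 units per rank (SE 0.0749, adjusted p = 0.0213), the 1 member of 10 that passed beside 4.81% of genes (4 members and 25.4% of genes unadjusted). The slope did not pass without animal 58 (adjusted p = 0.0573), without vehicle animals 3 and 4 (0.116), with the clock index (0.298) or with the GC slope (0.242). It passed under the other 24 of 28 alternatives, and stayed above 0 in all 28. Per dose rank it ran from 0.28 without animal 55 to 0.43 with the GC slope, and fitted over mg/kg, another unit, it was 0.15 log2 units per mg/kg (adjusted p = 0.0162). Against 0.1 mg/kg, a comparison without vehicle libraries, 6 mg/kg gave 0.69 (SE 0.234, adjusted p = 0.246, edgeR). There 0 of the 10 members passed with edgeR (1 at an unadjusted p under 0.05) beside 0.0386% of genes (12.8% unadjusted). With DESeq2 0 of the 10 passed, beside 148 of 12968 genes.

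The Abcc3 call at 6 mg/kg depended on single libraries. It was lost without any one of the 4 vehicle libraries, with adjusted p of 0.0637 (animal 8), 0.0683 (animal 7), 0.0944 (animal 4) and 0.0771 (animal 3), and without animals 3 and 4 together (0.405). It was also lost without animal 58 (0.0584) or animal 52 (0.0505) of the 6 mg/kg group. With the clock index as a covariate the log2 fold change was 1.24 (adjusted p = 0.9995), and with the GC slope it was 1.22 (adjusted p = 0.231). Over 18 alternatives the estimate ran from 0.95 to 1.25, always above 0, and the adjusted p from 0.000810 to 0.9995, with 8 alternatives passing. The size of the difference thus moved little and the call moved with the setting.

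**Figure D3:**
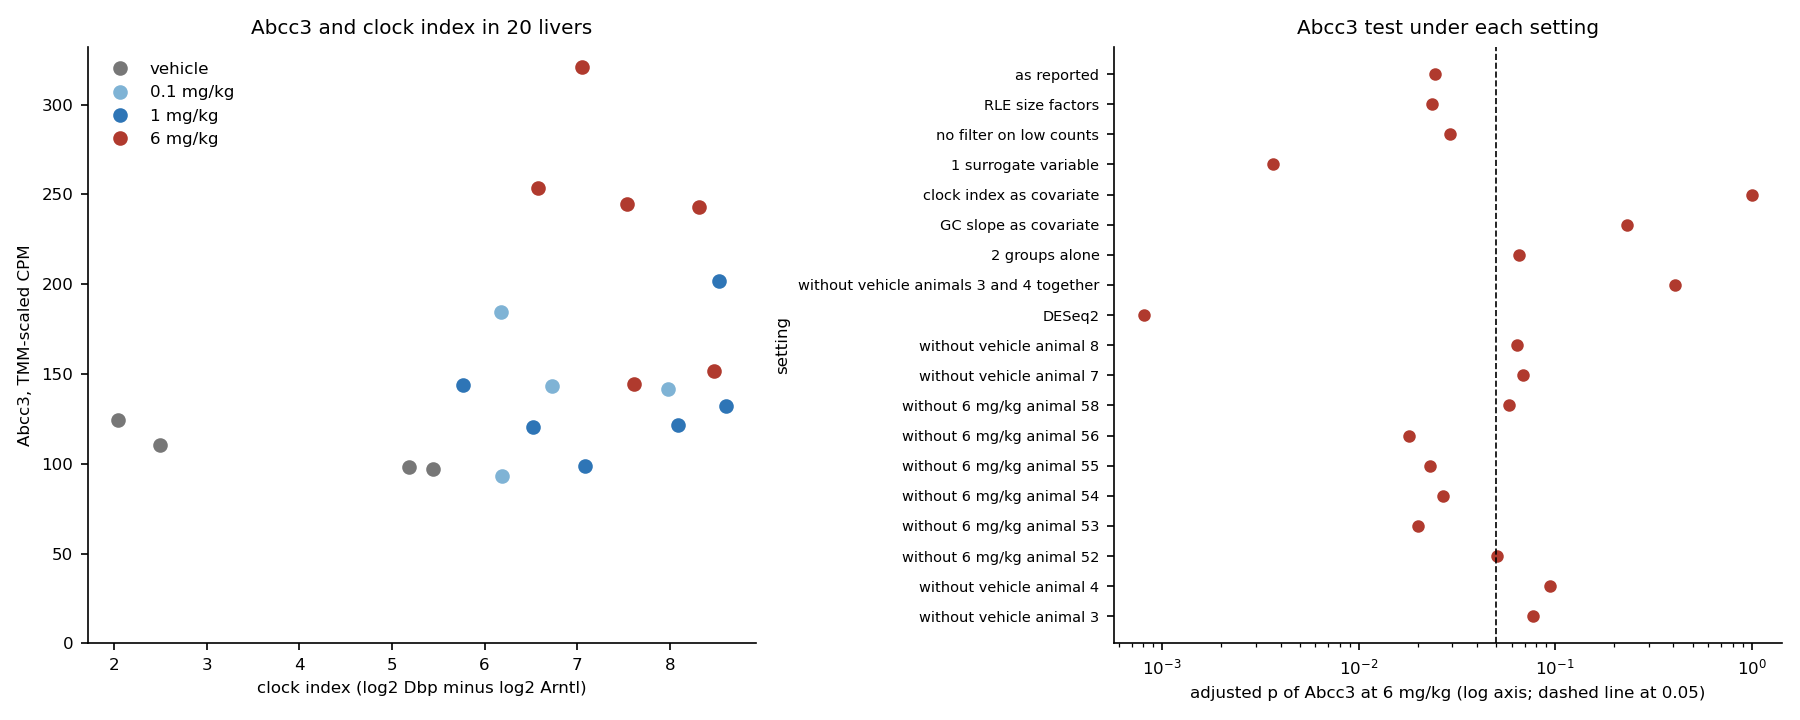
Left, Abcc3 in TMM-scaled CPM (y axis) against the clock index (x axis, log2 Dbp minus log2 Arntl) in 20 livers, coloured by dose; vehicle animals 3 and 4 lie at 2.04 and 2.49. Right, adjusted p of Abcc3 at 6 mg/kg under each setting on a logarithmic axis, with a dashed line at 0.05; it ranges from 0.000810 with DESeq2 to 0.9995 with the clock index as covariate.

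Abcc4 (Entrez 239273, chr14:118482692-118707856), which exports cyclic nucleotides and conjugated bile acids and is scarce in normal liver, measured 2.98, 5.49, 3.35 and 3.20 CPM in vehicle livers (animals 8, 7, 4 and 3). The 6 mg/kg livers measured 4.22, 13.1, 7.70, 5.15, 9.002 and 3.65 CPM (animals 58, 56, 55, 54, 53 and 52). Of the 6, 3 were above every vehicle library, with animal 56 highest, and the groups overlapped. The log2 fold change of 0.93 (SE 0.360) did not pass (adjusted p = 0.127), and it ran from 0.63 to 1.17 over 18 alternatives, none passing. At 0.1 and 1 mg/kg the log2 fold changes were 0.22 and -0.15. Animal 56 was among the highest of its group for both pumps, while animal 53 was high for Abcc4 and lowest for Abcc3.

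None of the 4 sinusoidal uptake carriers passed at any dose in the liver. At 6 mg/kg the estimates of Slc10a1 and Slco1b2 were below 0 and those of Slco1a4 and Slco1a1 above 0. Slc10a1 (Entrez 20493, chr12:80953185-80968705) measured 765, 936, 794 and 728 CPM in the vehicle livers (animals 8, 7, 4 and 3). The livers at 6 mg/kg measured 215, 743, 851, 335, 505 and 181 CPM (animals 58, 56, 55, 54, 53 and 52). Animals 58, 54, 53 and 52 were below every vehicle library, and animals 56 and 55 were within the vehicle range. The fit gave a log2 fold change of -0.77 (SE 0.351, adjusted p = 0.182, edgeR). Over 18 alternatives it ran from -1.02 without animal 55 to -0.20 with the GC slope as a covariate, and none passed. At 0.1 mg/kg the 4 libraries (473, 505, 582 and 728 CPM) all lay below the vehicle libraries, by a narrow margin at the top, as for 1.99% of genes in that direction. The fit at that dose gave -0.49 (SE 0.390, adjusted p = 0.994), and at 1 mg/kg -0.54 (SE 0.352, adjusted p = 0.649).

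Slco1b2 (Entrez 28253, chr6:141629452-141686646), which like Slc10a1 takes bile acids into hepatocytes, measured 621, 769.6, 709 and 805 CPM in the vehicle livers (animals 8, 7, 4 and 3). At 6 mg/kg it measured 379, 538, 676, 287, 381 and 460 CPM (animals 58, 56, 55, 54, 53 and 52). Of the 6, 5 were below every vehicle library, the exception being animal 55. The log2 fold change was -0.68 (SE 0.237) and missed the threshold (adjusted p = 0.0972, edgeR). Without animal 55 it was -0.83 and passed (adjusted p = 0.0353), and with the GC slope as a covariate it was -0.03 (adjusted p = 0.975). Over the 18 alternatives the adjusted p ran from 0.0353 to 0.9995.

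At 1 mg/kg Slco1b2 measured 297 to 509 CPM in 5 livers and 862 CPM in animal 41. Its log2 fold change at that dose was -0.52 (SE 0.238, adjusted p = 0.573), and at 0.1 mg/kg it was -0.21. Over 18 alternatives, 0 of which passed, the value at 1 mg/kg ran from -0.74 without animal 41 to -0.015 with the GC slope. From vehicle to the highest dose the group means were 726.2 ± 80.4 (SD, n = 4), 625.8 ± 50.1 (n = 4), 505.0 ± 189 (n = 6) and 453.4 ± 138 CPM (n = 6). The slope per dose rank was -0.23 (SE 0.0720, adjusted p = 0.0575, edgeR) and did not pass. It passed with DESeq2 (adjusted p = 0.0263) and without animal 56 (0.0386), animal 55 (0.0227) or animal 41 (0.0264), and under the other 24 of 28 alternatives it did not. Its adjusted p ran from 0.0227 to 0.980, and the slope from -0.28 without animal 55 to -0.0074 with the GC slope.

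Slco1a4 (Entrez 28250, chr6:141805438-141856284), a carrier of organic anions and some steroid conjugates, measured 205, 126, 159 and 162 CPM in vehicle livers (animals 8, 7, 4 and 3). The 6 mg/kg livers gave 229.8, 129.7, 184, 220.3, 226 and 230.5 CPM (animals 58, 56, 55, 54, 53 and 52). Of the 6, 4 were above every vehicle library, but the log2 fold change was 0.32 (SE 0.215, adjusted p = 0.368). It did not pass under any of 18 alternatives, which gave 0.11 (with a surrogate variable) to 0.53 (with the GC slope). About 2.73% of its 50-base stretches occur in other genes, mostly Slco1a5, so its counts could include a small share from them.

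Slco1a1 (Entrez 28248, chr6:141907281-141946962), a carrier of organic anions, was the most variable member, with a coefficient of variation of 137% over the 20 livers against 17.0% for Abcb11. The vehicle libraries measured 1.07, 1.37, 0.287 and 1.26 CPM (animals 8, 7, 4 and 3). The 1 mg/kg libraries measured 9.70, 2.18, 20.7, 1.30, 5.98 and 27.5 CPM (animals 50, 48, 46, 45, 42 and 41). Of the 6, 5 were above every vehicle library. The log2 fold change at 1 mg/kg was 3.48 (SE 1.07, adjusted p = 0.508, edgeR), and it ran from 2.99 to 4.95 over 18 alternatives, none passing.

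At the other doses Slco1a1 overlapped vehicle. It was 0.905, 1.67, 3.62 and 12.8 CPM at 0.1 mg/kg, where the log2 fold change was 2.25 (SE 1.11, adjusted p = 0.994). Of the 6 livers at 6 mg/kg, 5 measured 0.240 to 2.03 CPM and animal 55 measured 13.2 CPM, and the fit gave 1.73 (SE 1.06, adjusted p = 0.319). Under 18 alternatives, 0 of which passed, that value ran from 0.40 without animal 55 to 3.52 with the GC slope. The counts behind these values ran from 2 to 257 per library, so the fold changes of this gene rest on few reads in vehicle and at 6 mg/kg. About 2.26% of its 50-base stretches occur in other genes, mostly Slco1a4, which had 744 to 2208 counts per liver library. Reads of Slco1a4 could thus be among the few counted for Slco1a1, and their share was not tested.

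None of the 4 canalicular pumps passed at any dose in the liver. Abcb11 (Entrez 27413, chr2:69238282-69342616), which secretes bile salts, measured 616, 704, 612 and 703 CPM in vehicle livers and 659.8, 484, 531, 522, 546 and 519.7 CPM at 6 mg/kg, in the animal order used above. Of the 6, 5 at 6 mg/kg were below every vehicle library, and the log2 fold change was -0.28 (SE 0.175, adjusted p = 0.333). Over 18 alternatives, 0 of which passed, it ran from -0.34 without animal 58 to -0.061 with the clock index. It was of the same size at 0.1 mg/kg (-0.28, SE 0.193) and 1 mg/kg (-0.23, SE 0.175), where neither passed.

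Abcc2 (Entrez 12780, chr19:43782308-43838332), the canalicular pump for conjugated bilirubin and other conjugates, ranged from 112 to 220.0 CPM in vehicle and from 122 to 249 CPM at 6 mg/kg (0.16, SE 0.254, adjusted p = 0.738). Under 18 alternatives, 0 of which passed, its log2 fold change ran from 0.020 without vehicle animal 8 to 0.85 with the GC slope. Abcg2 (Entrez 26357, chr6:58584491-58692451), a pump for sulfates and many drugs, ranged from 18.2 to 29.7 CPM in vehicle and from 16.3 to 27.0 CPM at 6 mg/kg (-0.05, SE 0.188, adjusted p = 0.897). Abcb1a (Entrez 18671, chr5:8567091-8748575), which encodes a P-glycoprotein that exports fat-soluble drugs, ranged from 3.58 to 8.34 CPM in vehicle and from 3.75 to 12.3 CPM at 6 mg/kg (0.04, SE 0.349, adjusted p = 0.957). Abcb1a and Abcg2 changed sign under some alternatives, so no direction is given for them. Of Abcb1a's 50-base stretches, 15.5% occur in its neighbour Abcb1b, so reads of that paralog could be counted with it.

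**Figure D4:**
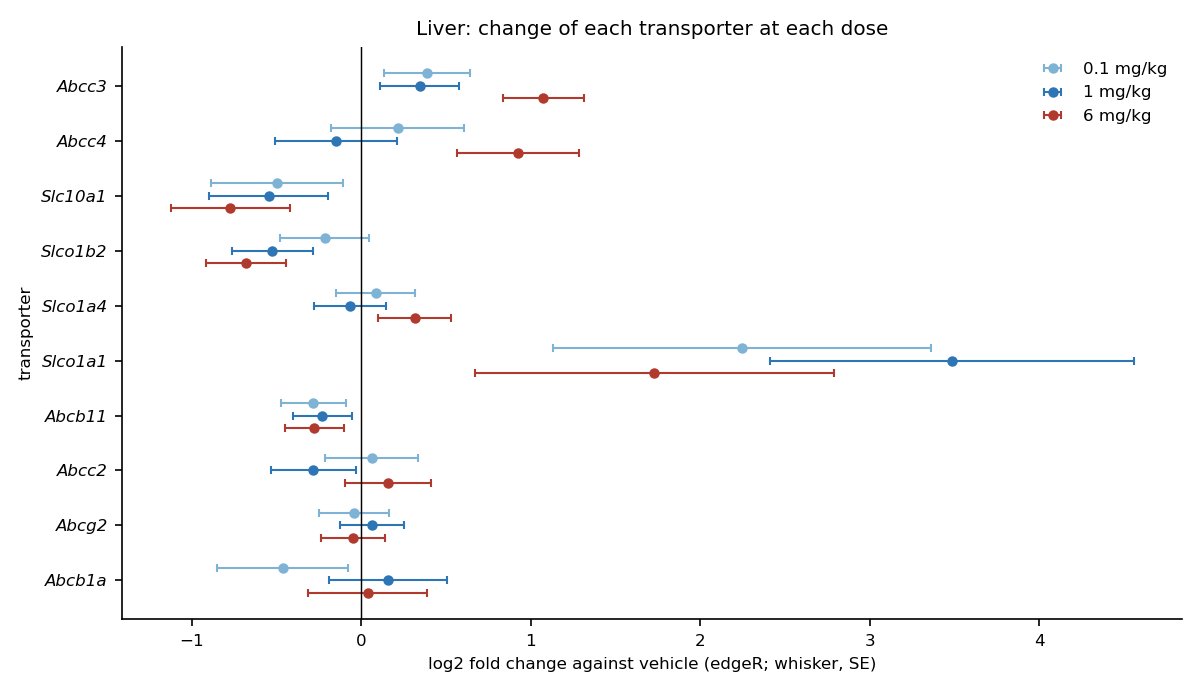
Log2 fold change against vehicle (x axis) of each member (y axis) in the liver at 0.1, 1 and 6 mg/kg, with whiskers of 1 SE from the edgeR fit. Abcc3 at 6 mg/kg, at 1.07, is the value that passed, and Slco1a1 has the widest whiskers at each dose.

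At 1 mg/kg 0 of 10 members passed in the liver with edgeR (0% of genes) or with DESeq2 (21 of 12968 genes). With edgeR 2 were under 0.05 before adjustment (8.44% of genes). At 0.1 mg/kg 0 passed with edgeR (0.0154% of genes) or with DESeq2 (12 of 12968 genes). Before adjustment 0 were under 0.05 with edgeR (4.1% of genes) and 1 with DESeq2 (588 of 12968 genes). The members' medians were -0.11 at 1 mg/kg and 0.01 at 0.1 mg/kg. On counts simulated with known changes, the 6 mg/kg comparison recovered 43.9% of 2-fold and 86.7% of 4-fold changes among 12759 liver genes. Thus a 2-fold change could often be missed, and 5.19% of the calls were false. The simulation held no clock or GC pattern shared between genes. Its recovery is a mean over genes and does not describe any 1 member, whose SE at 6 mg/kg ran from 0.175 (Abcb11) to 1.06 (Slco1a1).

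Cell markers differed between some liver groups, and their part in the results was not tested. Of 5 hepatocyte markers, 4 had estimates below vehicle at 6 mg/kg and 0 of 5 passed, with summed levels of 91228 to 101905 CPM in vehicle and 70697 to 117752 CPM at 6 mg/kg. They summed to 85261 to 104618 CPM at 0.1 mg/kg and 84765 to 154302 CPM at 1 mg/kg, where the mean was higher than in vehicle (121607 against 96670 CPM). The 5 Kupffer cell markers summed to 93.5 to 161 CPM in vehicle, 167 to 230 CPM at 0.1 mg/kg, 142 to 288 CPM at 1 mg/kg and 129 to 279 CPM at 6 mg/kg. The 0.1 mg/kg livers thus lay wholly above vehicle, and those of the other doses overlapped it. At 6 mg/kg 4 of the 5 had estimates above 0 and 1 below, and 1, Clec4f, rose. The 4 macrophage-lineage markers of the microglia list summed to 36.4 to 47.1 CPM in vehicle, 62.8 to 67.02 CPM at 0.1 mg/kg, 34.5 to 105 CPM at 1 mg/kg and 51.6 to 99.5 CPM at 6 mg/kg, with no overlap with vehicle at 0.1 and 6 mg/kg. Sinusoidal endothelial markers summed to 155 to 178 and 118 to 167 CPM, and cholangiocyte markers to 45.8 to 119 and 35.8 to 112 CPM.

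Receptors and enzymes of the same pathways were read from lists. Of 14 tested receptors and partner factors, 1 passed at 6 mg/kg (2.8% of all genes did): Nr1i2, the receptor PXR, rose by 0.71 on the log2 scale (SE 0.187, adjusted p = 0.0441), and its mean was 65.2 ± 7.84 CPM (SD, n = 4 vehicle livers) against 106.3 ± 28.03 CPM (SD, n = 6). Nr1i3, the receptor CAR, had the next smallest p, at 1.03 (SE 0.311, adjusted p = 0.0698). Of the 14, 6 had an unadjusted p under 0.05, 5 above vehicle and Nr5a2, a bile acid regulator, below (-0.54), beside 24.2% of all genes. The list's median was 0.22 against 0.02 for all genes. None of the 14 passed with either covariate (clock index, GC slope), with the 2 groups alone, with no filter on low counts or without vehicle animals 3 and 4 together, and 2 passed with DESeq2. None passed without any one of the 4 vehicle libraries, or without animal 58, 54, 53 or 52, and 2 passed without animal 56 or 55. Over all genes DESeq2 called 1138 of 12968 against 363 with edgeR. For the other settings the counts over all genes are not given here. The counts under these settings, for this list and the lists below, are therefore not read as particular to their genes.

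Of 15 target genes of these regulators, 4 passed and all 4 rose, where 1.8% of all genes passed in that direction. Cyp2b10, the classical target of CAR, measured 1.53 ± 0.621 CPM (SD, n = 4 vehicle livers) and, with a wide spread, 100.3 ± 103 CPM (SD, n = 6; log2 fold change 6.01, SE 0.912, adjusted p = 0.00592). The others were Cyp1a2, a target of the aryl hydrocarbon receptor (1.44, SE 0.231, adjusted p = 0.00592), the carboxylesterase Ces2a (1.01, SE 0.173, adjusted p = 0.00932) and Cyp2c37 (1.04, SE 0.237, adjusted p = 0.0272). Abcc3's rise of 1.07 was thus of the size seen for Ces2a and Cyp2c37. The bile acid enzymes Cyp7a1 and Cyp8b1 were each at -0.82 and did not pass (adjusted p = 0.274 and 0.234). The list's median was 0.20. None of the 15 passed without vehicle animal 4, without animals 3 and 4 together or with the clock index as a covariate, 2 passed without animal 3 or with the 2 groups alone, and 1 passed with the GC slope.

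Of 20 other transporters tested, from 27 listed, 1 passed, beside 2.8% of all genes. Abcg5, a subunit of the canalicular sterol pump, rose by 1.06 on the log2 scale (SE 0.273, adjusted p = 0.0413, edgeR), and its mean was 94.2 ± 36.9 CPM (SD, n = 4 vehicle livers) against 196.2 ± 66.1 CPM (SD, n = 6). Its partner subunit Abcg8 was at 0.34 (adjusted p = 0.349). Abcc6 and Abcc5, basolateral pumps related to Abcc3, had the next smallest p, at 0.79 (adjusted p = 0.0779) and 1.26 (adjusted p = 0.0934). Of the 20, 4 had an unadjusted p under 0.05, all above vehicle, where 24.2% of all genes did. There were 11 above 0 and 9 below, with a median of 0.08 against 0.02 for all genes. None of the 20 passed with either of those covariates, with the 2 groups alone or without vehicle animals 3 and 4 together, and 3 passed with DESeq2. None passed without vehicle animal 7, 4 or 3 or without animal 58, 54, 53 or 52, and 3 passed without animal 56 or 55.

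Across the 20 livers Abcc3 was ranked against the other 12967 tested genes by Spearman correlation of log2 CPM, as a description over libraries that share dose groups. The most alike were Zyx (0.83), Chdh (0.81), Acaa1b (0.80), Creb3l3 (0.80) and Slc6a9 (0.80), and Cyp2b10 was 6th (0.80). Ppara, the fatty acid receptor, was 21st (0.75) and Nr1i2 295th (0.55). Slc10a1, the member with the lowest estimate at 6 mg/kg, was most like Pdha1 (0.93), Zdhhc9 (0.91), Dmgdh (0.89), Hnmt (0.89) and Acsl5 (0.89). Among the 45 pairs of members the highest value was 0.72 for Slc10a1 with Slco1b2, the sinusoidal bile acid carriers, and the lowest was -0.52 for Slc10a1 with Slco1a4. Abcc3 and Abcc4 reached 0.46.

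In the brain the members with appreciable counts were Abcb1a, Slco1a4, Abcc4, Abcg2 and Abcc3. In vehicle prefrontal cortex Abcb1a led at 6.62 ± 0.462 CPM per kb (SD, n = 4), followed by Slco1a4 (5.33 ± 0.865), Abcc4 (2.52 ± 0.333), Abcg2 (2.09 ± 0.438) and Abcc3 (0.461 ± 0.173). Abcb1a overlapped Slco1a4, and Abcc4 overlapped Abcg2. In the striatum the order was the same, at 6.53 ± 0.405, 4.83 ± 0.610, 2.53 ± 0.283, 1.43 ± 0.106 and 0.608 ± 0.112 CPM per kb, and no neighbours overlapped. Abcc2, Slco1b2 and Slc10a1, the hepatocyte-type members, had at most 5 counts in any brain library and were at 0 in 7, 12 and 8 of the 21 prefrontal cortex libraries and in 10, 14 and 8 of the 21 of the striatum.

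Between tissues of vehicle mice, the 5 members tested in each of the tissues all passed for liver against prefrontal cortex, where 84.9% of genes passed. On the scale shared by both tissues Abcc3 measured 160.5 ± 19.2 CPM in the liver and 2.06 ± 0.778 CPM in the prefrontal cortex (SD, n = 4 each; log2 fold change 6.27, SE 0.223). Slco1a4 (3.18, SE 0.171) and Abcg2 (1.42, SE 0.184) were also higher in the liver. The blood-brain barrier pump Abcb1a went the other way, at 9.99 ± 3.18 CPM in the liver and 28.4 ± 1.81 CPM in the prefrontal cortex (-1.51, SE 0.203, adjusted p = 8.34e-06), as did Abcc4 (-1.16, SE 0.214, adjusted p = 0.000167). For Abcc2, Slco1b2 and Slc10a1 neither fold nor test is given, since the prefrontal cortex libraries held 0 to 3, 0 to 2 and 0 to 5 counts against 941 to 8868 in the liver. The median log2 fold change of all genes was -0.19, so these contrasts are relative to that shift.

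Between the brain regions of vehicle mice 1 of 5 members passed, beside 22.2% of genes. Abcg2 was lower in the striatum, at 11.3 ± 0.822 against 17.4 ± 3.65 CPM (SD, n = 4 each; log2 fold change -0.63, SE 0.155, adjusted p = 0.00986, edgeR). The other 4 did not pass, with Slco1a4 at -0.23, Abcb1a at -0.10, Abcc4 at -0.07 and Abcc3 at 0.32.

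No member passed in either brain region at any dose. In the prefrontal cortex 0 of 5 passed at 6, 1 and 0.1 mg/kg with edgeR, beside 0% of genes at each dose. With DESeq2 0 of 5 passed too, beside 27, 0 and 1 of 14838 genes. Before adjustment 0 were under 0.05, beside 9.27%, 8.29% and 6.43% of genes. In the striatum 0 of 5 passed at each dose with either tool, beside 0% of genes with edgeR and 26, 6 and 1 of 15118 with DESeq2. Before adjustment 0, 2 and 0 were under 0.05 at 6, 1 and 0.1 mg/kg, beside 15.7%, 7.36% and 2.53% of genes. On simulated counts the 6 mg/kg comparison recovered 84% of 2-fold changes in the prefrontal cortex (14714 genes) and 79.8% in the striatum (14984 genes). Of the calls 1.63% and 6.49% were false, and the limits given for the liver simulation hold here too.

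Slco1a4 in the striatum at 1 mg/kg had the smallest p of any member in the dose comparisons of the brain. It measured 26.7, 29.8, 31.1 and 36.1 CPM in vehicle and 31.7, 39.0, 39.4, 42.9, 43.1 and 43.8 CPM at 1 mg/kg. Of the 6, 5 were above every vehicle library. Its log2 fold change was 0.37 (SE 0.102, adjusted p = 0.596, edgeR). At the other doses Slco1a4 was 28.2 to 31.3 CPM at 0.1 mg/kg and 25.8 to 34.2 CPM at 6 mg/kg.

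Abcg2 in the striatum was also highest at 1 mg/kg. It measured 10.9, 11.2, 11.9 and 12.8 CPM in vehicle and 12.1, 12.7, 13.4, 16.1, 16.4 and 17.9 CPM at 1 mg/kg, with 4 of 6 above every vehicle library. Its log2 fold change was 0.34 (SE 0.136, adjusted p = 0.675, edgeR). The 6 mg/kg striata gave 8.65 to 14.1 CPM (-0.01, SE 0.137). Abcb1a in the striatum was 33.3 to 38.5 CPM in vehicle, 38.0 to 42.1 CPM at 1 mg/kg (0.14, SE 0.119) and 23.5 to 41.3 CPM at 6 mg/kg (-0.12, SE 0.119, and -0.20 to -0.044 over 17 alternatives, 0 of which passed). The GC slope also differed between these groups, at -0.398 to 0.383 in vehicle striata, -0.558 to 0.275 at 1 mg/kg and 0.281 to 0.419 at 6 mg/kg. With the GC slope as a covariate the log2 fold changes at 1 mg/kg were 0.25 for Slco1a4 and 0.25 for Abcg2, and over 17 alternatives they ran from 0.25 to 0.45 and from 0.25 to 0.39, none passing. Markers of the choroid plexus, a tissue that also expresses organic anion carriers, summed to 38.5 to 696 CPM in vehicle striata and 24.1 to 4379.9 CPM at 1 mg/kg. The 4 general neuron markers summed to 2505 to 3121 CPM in vehicle striata, 2707 to 3776 CPM at 1 mg/kg and 2256 to 2591 CPM at 6 mg/kg, overlapping between vehicle and either dose but not between 1 and 6 mg/kg. The 5 striatal neuron markers summed to 2099 to 4784 CPM in vehicle, 1961 to 3921 CPM at 1 mg/kg and 2794 to 4889 CPM at 6 mg/kg, so their mean was lowest at 1 mg/kg. The part of these markers in the values of Slco1a4 and Abcg2 was not tested.

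**Figure D5:**
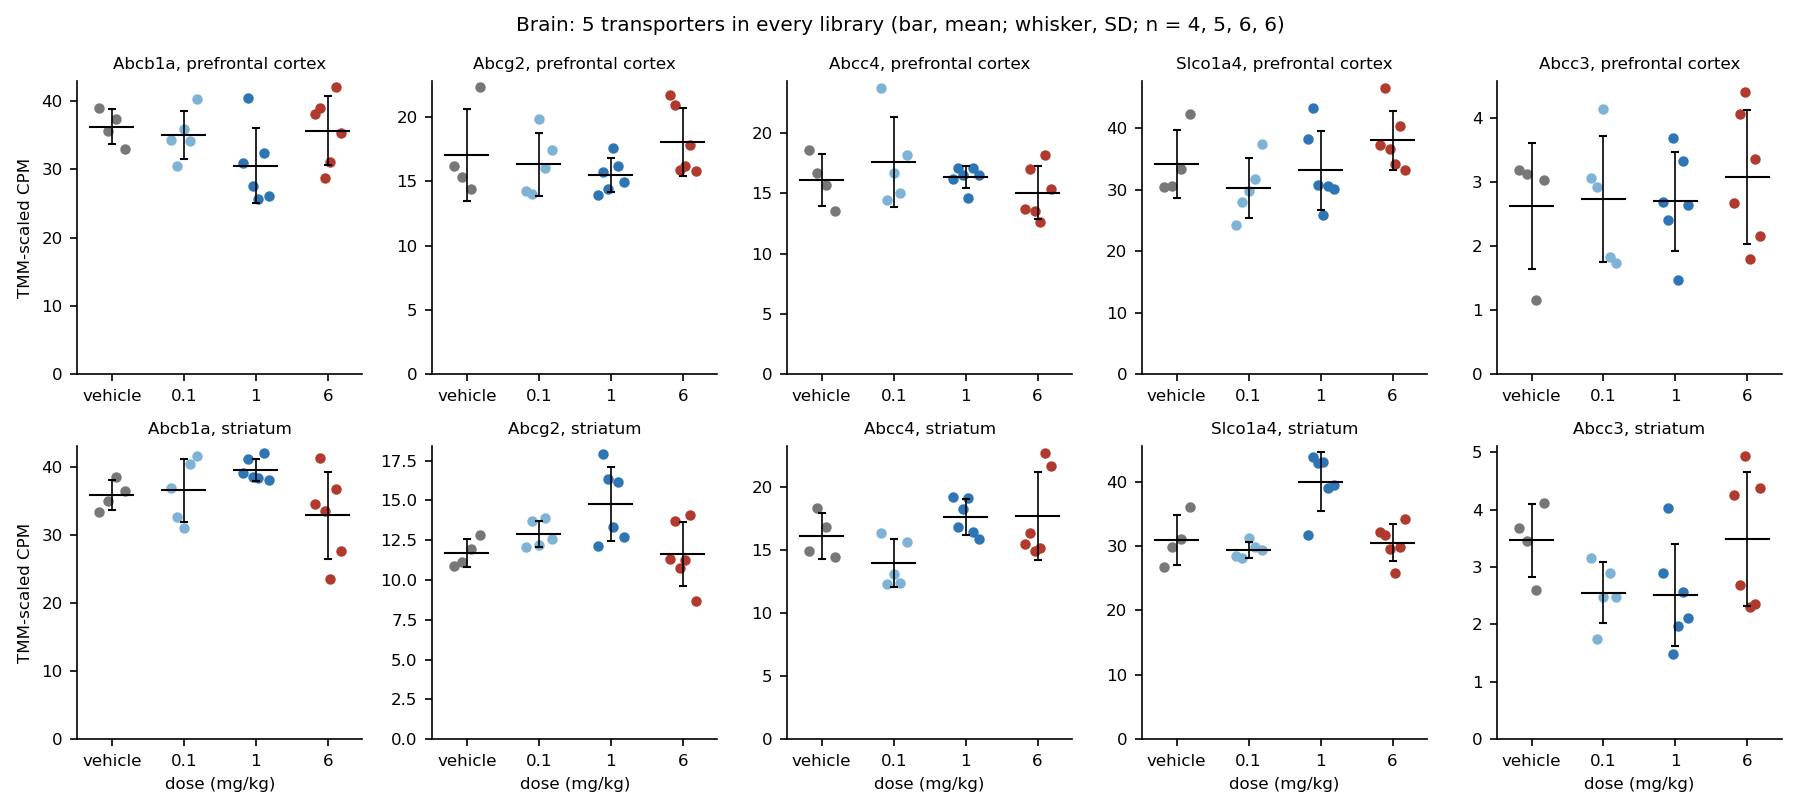
TMM-scaled CPM (y axis) of the 5 tested members in each of the 21 prefrontal cortex (top) and 21 striatum (bottom) libraries by dose in mg/kg. Points are libraries, bars means and whiskers SD. Slco1a4 in the striatum is at 39.0 to 43.8 CPM in 5 of 6 libraries at 1 mg/kg and at 25.8 to 34.2 CPM at 6 mg/kg.

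In the prefrontal cortex Abcb1a measured 38.9, 35.6, 37.4 and 33.0 CPM in vehicle and 25.7 to 40.4 CPM at 1 mg/kg, where 5 of 6 libraries were below every vehicle library (log2 fold change -0.25, SE 0.122, adjusted p = 0.588). At 6 mg/kg it was 28.7 to 42.002 CPM (-0.02, SE 0.122). The groups overlapped at both doses, with 1 library at 1 mg/kg above every vehicle library. At 1 mg/kg the estimates of Abcb1a had opposite signs in the 2 regions, neither passed, and the difference between regions was not tested. Slco1a4 was 24.3, 27.98, 29.8, 31.8 and 37.4 CPM at 0.1 mg/kg and 33.3 to 46.5 CPM at 6 mg/kg. Between those doses the log2 fold change was 0.33 (SE 0.130, adjusted p = 0.377, edgeR), with 0.17 (GC slope) to 0.43 (without animal 23) over 18 alternatives, 0 of which passed.

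Between 6 and 0.1 mg/kg 0 of 5 members passed with DESeq2 in either region, beside 116 of 14838 genes in the prefrontal cortex and 1098 of 15118 in the striatum. With edgeR 0 of 5 passed in the prefrontal cortex (0.108% of genes) and 0 of 5 in the striatum (2.91% of genes). In each region 1 member was under 0.05 before adjustment with edgeR (10.1% and 22.3% of genes). In the striatum this was Abcc4, at 12.3 to 16.3 CPM at 0.1 mg/kg and 14.9 to 22.7 CPM at 6 mg/kg (0.34, SE 0.127, adjusted p = 0.118), with 0.26 to 0.54 over 18 alternatives, 0 of which passed. Over the dose ranks 0 of 5 passed in either region with edgeR, beside 0.0202% and 0% of genes, and 0 were under 0.05 before adjustment (9.79% and 13.1% of genes). With DESeq2 0 of 5 passed in either region, beside 65 of 14838 and 14 of 15118 genes. Against vehicle at 6 mg/kg, Abcc3, the member that rose in the liver, was at 0.23 (SE 0.314) in the prefrontal cortex and 0.01 (SE 0.271) in the striatum.

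The difference between tissues in the effect of 6 mg/kg was tested as an interaction. It is read for the 5 members tested in each of the tissues, since Abcc2, Slco1b2 and Slc10a1 had at most 5 counts in any brain library. For liver against striatum 0 of the 5 passed with DESeq2, beside 134 of 14454 genes. With edgeR 0 of the 5 passed, beside 0.0277% of genes (1 member and 14.3% of genes unadjusted). Abcc3 had the smallest p there, with an interaction of 1.05 (SE 0.346, adjusted p = 0.231, edgeR). For liver against prefrontal cortex 0 of the 5 passed with edgeR, beside 0.899% of genes (2 members and 20% of genes unadjusted). With DESeq2 0 of the 5 passed, beside 928 of 14351 genes. Abcc4 was at 1.02 (SE 0.394, adjusted p = 0.159) and Abcc3 at 0.83 (SE 0.391, adjusted p = 0.239). The rise of Abcc3 in the liver was therefore not shown to differ from its change in the brain.

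The lists named few genes in the brain, where 9.27% of all genes in the prefrontal cortex and 15.7% of those from striatum were under 0.05 before adjustment at 6 mg/kg and 0% passed in either. None of the 18 other transporters tested passed at 6 mg/kg in either region with edgeR, with 1 under 0.05 before adjustment in the prefrontal cortex and 0 in striatal libraries. The smallest p were those of Slc51a (0.56, adjusted p = 0.497) and Atp8b1 (0.31, adjusted p = 0.734) in the prefrontal cortex, and the smallest in the striatum was that of Slc29a1 (0.24, adjusted p = 0.341). None of the 9 receptors and factors tested in the prefrontal cortex or the 8 in the striatum passed, nor any of the 3 target genes in each (unadjusted p under 0.05 for 1 and 0 receptors and for 1 target gene in each region). The receptors with the smallest p were Ppara (-0.73, adjusted p = 0.522) and Keap1 (-0.18, adjusted p = 0.577) in the prefrontal cortex, and Por (0.21, adjusted p = 0.328) and Ppara (-0.42, adjusted p = 0.507) in the striatum. Of the target genes Cyp27a1, a bile acid and oxysterol enzyme, had the smallest p in both regions, at 0.96 (adjusted p = 0.312) and 0.56 (adjusted p = 0.292), followed by Gclc (0.04 and -0.04). None of the 11 clock genes passed in either region (unadjusted p under 0.05 for 2 and 4). The smallest p were those of Per1 (-0.68, adjusted p = 0.344) and Dbp (0.34, adjusted p = 0.444) in the prefrontal cortex, and Clock (-0.37, adjusted p = 0.211) and Dbp (0.44, adjusted p = 0.222) in the striatum.

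Whether the barrier transporters followed the amount of endothelium in a punch was read from the correlation of Abcb1a, Abcg2, Abcc4 and Slco1a4 with the mean log2 CPM of 10 brain endothelial markers over the 21 libraries of each region. The markers summed to 311 to 400 CPM in cortical and 356 to 453 CPM in striatal libraries. None of the 8 relations passed (permutation tests, two-sided). In the prefrontal cortex Pearson's r was 0.18 for Abcb1a, 0.26 for Abcg2, -0.33 for Abcc4 and 0.14 for Slco1a4, each with adjusted p = 0.709, and Spearman's rho was 0.18, 0.24, -0.24 and 0.09. In the striatum r was 0.16, 0.11, 0.14 and 0.00, with adjusted p of 0.709, 0.722, 0.709 and 0.992, and rho was 0.10, -0.02, 0.17 and 0.07. Without the 2 libraries farthest from the median marker level, r became 0.31, 0.23, -0.34 and 0.32 in the prefrontal cortex and 0.24, 0.23, 0.14 and 0.08 in the striatum.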

How the data were processed

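RNA was extracted with TRIzol and RNeasy columns from liver and from punches of prefrontal cortex and striatum, per the labels' protocols. The authors deposited a table of raw counts per gene, keyed by Entrez identifier, for each tissue. FastQC, HISAT2 and build mm10 are named in the submitters' processing notes, and the counting tool, annotation and strand setting are not given in the sources used here. Because the mRNA enrichment method and strand are not stated, reads of overlapping or antisense genes could not be separated.

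From these counts, edgeR 4.0.16 (R 4.3.3) fitted quasi-likelihood models per tissue with all dose groups, after its default filter on low counts and TMM scaling. P-values were adjusted by Benjamini-Hochberg over all genes tested, with a threshold of 0.05, and each SE was derived from the F statistic of its test. Levels are TMM-scaled CPM, and log2 CPM uses a prior count of 2. DESeq2 1.42.0 and sva 3.50.0 gave alternatives. The self-test on simulated counts used the same code. Libraries of 1 number in different tissues were taken as the same mouse for the block only. No pair of libraries agreed within sampling noise.

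The members and lists were chosen with earlier results of these data known. All 10 members are named, and of each other list the genes that passed or, where none did, the 2 with the smallest p. Other list genes (Nr1i3, Nr5a2, Abcc5, Abcc6, Abcg8, Cyp7a1 and Cyp8b1, and Ppara and Nr1i2 in the ranking of likeness) were named after their values were seen. A gene that this rule names in the striatum is not reported here. Promoter windows come from RefSeq. Python 3.11.15 with scipy 1.17.1 ran the permutation tests (100000 draws).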

Additional observations from a re-analysis of the deposited data

Results flagged for a closer look

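In 80 groups of 4 to 6 libraries, 6 had a library whose gap to the nearest other was large for the range of its group by Dixon's test. Chance flags about 1 in 20 groups, or 4 of these 80.

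In the liver, Abcc2 at 1 mg/kg was 234 CPM in animal 41 against 83.8 to 136 CPM in the other 5 livers, and the same animal had the highest Slco1b2 of its group (862 CPM). Abcc4 in vehicle livers was 5.49 CPM in animal 7 against 2.98 to 3.35 CPM in the other 3. Abcb11 at 6 mg/kg was 659.8 CPM in animal 58 against 484 to 546 CPM in the other 5. Slco1a1 at 6 mg/kg was 13.2 CPM in animal 55 against 0.240 to 2.03 CPM.

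In the prefrontal cortex, Abcc3 in vehicle mice was 1.16 CPM in animal 4 against 3.03 to 3.20 CPM, and without that animal the log2 fold change at 6 mg/kg was -0.015 in place of 0.23. Abcc4 at 1 mg/kg was 14.6 CPM in animal 45 against 16.2 to 17.1 CPM.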

How the results depend on the processing

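At 6 mg/kg in the liver the number of members passing was 1 as reported and 0 with the clock index or the GC slope as a covariate, with the 2 groups alone and without vehicle animals 3 and 4 together. Leaving out 1 library gave 0 to 2. For the slope over dose rank it was 1 as reported, 0 with either covariate (clock index, GC slope) and without vehicle animals 3 and 4, 2 with DESeq2, and 0 to 2 leaving out 1 library. Over all genes DESeq2 called 1138 at 6 mg/kg against 363 with edgeR, and 1228 against 624 for the slope. The GC slope fits, the fits without animals 3 and 4 together and the list counts were chosen after seeing the data. The cause of these shifts was not tested.

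Values near 0 changed sign. Abcb1a in the liver (0.04) was -0.17 without animals 3 and 4, -0.21 to 0.17 leaving out 1 library and 0.79 with the GC slope. Abcg2 in the liver (-0.05) was 0.094 with the GC slope, 0.074 without animals 3 and 4, and -0.16 to 0.069 leaving out 1 library. In the prefrontal cortex Abcb1a (-0.02) was 0.024 with a surrogate variable, 0.017 with the clock index and -0.072 to 0.033 leaving out 1 library, and Abcc3 (0.23) ran from -0.015 without vehicle animal 4 to 0.34 without animal 54. In the striatum Abcg2 (-0.01) was 0.0055 with a surrogate variable, 0.10 with the GC slope and -0.069 to 0.065 leaving out 1 library. Slco1a4 there (-0.02) was 0.10 in the clock index fit, 0.12 in the GC slope fit and -0.086 to 0.058 leaving out 1 library, and Abcc3 (0.01) was -0.028 with the GC slope and -0.12 to 0.10 leaving out 1 library, and 0.15 with a surrogate variable. Abcc4 in vehicle striatum against prefrontal cortex (-0.07) was 0.034 without animal 8. After subtracting dose means, the endothelial correlations were -0.026 for Abcb1a and -0.15 for Slco1a4 in the prefrontal cortex, and -0.13 for Abcc4 and -0.24 for Slco1a4 in the striatum. The values named here were in effects that did not pass in the reported fits, apart from the counts.

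With the replicate number as a block, of the 5 members tested in each tissue, those passing stayed 0 for both interactions, 5 for vehicle liver against prefrontal cortex and 1 for vehicle striatum against prefrontal cortex. Blocked values were 0.80 (adjusted p = 0.270) for Abcc3 and 0.92 (adjusted p = 0.231) for Abcc4 in the interaction of liver and prefrontal cortex, 1.05 (adjusted p = 0.315) for Abcc3 with the striatum, and -0.61 (adjusted p = 0.0105) for Abcg2 between brain regions. Same-numbered libraries deviated together with a mean correlation of 0.0063 (liver and prefrontal cortex), 0.0052 (liver and striatum) and 0.11 (striatum and prefrontal cortex). For libraries of different number the means were -0.0016, -0.0020 and -0.023. A library correlated best with its own number in 4 of 20, 8 of 20 and 11 of 21 cases. These comparisons were made within dose groups, which hold few libraries, so matches of number also arise by chance. Depth limits Slco1a1, with 2 to 257 counts per liver library, and Abcc4, with 16 to 135.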
